A study of Homo sapiens with 9 samples.

Results

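In all, 10 genes of the response to low oxygen were followed in RNA sequencing of PC9/GR cells, a lung adenocarcinoma line made resistant to gefitinib, a drug that blocks the EGF receptor. They were taken by gene symbol: HIF1A (gene ID 3091), CA9 (768), BNIP3 (664), BNIP3L (665), NDRG1 (10397), EGLN1 (54583), EGLN3 (112399), ANKRD37 (353322), KDM3A (55818) and P4HA1 (5033). All 10 are among the 27059 genes of the deposited table, and all 10 passed the filter on low counts. The labels name 3 groups of 3 libraries each: sh1-HUMT and sh2-HUMT, which carry one or the other short hairpin RNA designed against the long noncoding RNA HUMT, and shNC, which carries a control hairpin. All groups share the gefitinib-resistant line and its serum-containing medium, and the labels name no treatment with low oxygen. The labels do not say whether a group is 1 clone or a pool of cells, nor whether replicates were grown apart, so every p-value rests on a spread between libraries that may be technical only. The deposited table, by contrast, heads its columns with A549, a different lung cancer line, and with "Si_1" and "Si_2"; PC9/GR is used here because the labels say so.

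In well-oxygenated cells, EGLN prolyl hydroxylases mark the HIF1A protein, VHL recognises the mark, and the protein is destroyed. When oxygen falls, HIF1A protein persists, pairs with ARNT and binds a short core motif near its target genes, which include sugar transporters, glycolytic enzymes and genes for pH control, mitophagy and collagen folding. Because this control acts on the protein, the level of HIF1A mRNA is not a measure of HIF activity. Several HIF targets are also switched on by other stress, for example by ATF4, AP-1 or NRF2, and the question here was whether HIF targets moved together or whether only those shared with other stress moved.

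To show where HIF could bind, promoter windows of RefSeq (assembly GRCh38.p14, 250 bases before to 50 bases after a transcript start) were searched on both strands for the core motif, ACGTG or GCGTG. A window was held for 8 of the 10 genes, and 7 of these 8 carried at least 1 match, against 52.4% of 27305 genes with a window. The stricter core ACGTG was found in 5 of the 8 (CA9, P4HA1, BNIP3, ANKRD37 and EGLN1), against 24.9% of all genes. Lists described below that were not chosen for HIF held matches too. Either core was found in 11 of 15 other stress genes and 3 of 4 epithelial and lung markers with a window. Among markers of other cell types it was found in 2 of 3. ACGTG alone was found in 2 of those 15, 2 of those 4 and 0 of those 3. EGLN3 had no match, which says only that these letters are absent from its window. These stretches upstream of the transcript start are shown because they hold the matches of a gene that rose (CA9) and of genes that fell (P4HA1, KDM3A, BNIP3 and, in sh1-HUMT libraries, ANKRD37), as described below. They are read 5′ to 3′ on the gene's own strand, with matches on either strand in capitals; CACGT and CACGC are the core read on the opposite strand. They lie at chr9:35673870-35673927 (CA9, plus strand), chr10:73096908-73096992 (P4HA1, minus strand), chr2:86441305-86441370 (KDM3A, plus strand), chr10:131981983-131982106 (BNIP3, minus strand) and chr4:185396639-185396742 (ANKRD37, plus strand).
CA9: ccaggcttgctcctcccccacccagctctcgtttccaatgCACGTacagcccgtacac
P4HA1: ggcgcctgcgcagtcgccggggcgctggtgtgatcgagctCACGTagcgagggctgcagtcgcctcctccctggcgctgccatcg
KDM3A: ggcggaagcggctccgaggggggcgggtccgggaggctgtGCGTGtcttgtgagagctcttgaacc
BNIP3: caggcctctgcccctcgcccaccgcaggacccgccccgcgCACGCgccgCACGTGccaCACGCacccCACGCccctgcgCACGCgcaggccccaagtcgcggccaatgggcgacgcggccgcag
ANKRD37: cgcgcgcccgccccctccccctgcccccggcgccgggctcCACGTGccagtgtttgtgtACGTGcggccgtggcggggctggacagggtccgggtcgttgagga

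The CA9 match began 18 bases before the start, that of P4HA1 86 bases before its start and that of KDM3A 26 bases before the more upstream of its starts. BNIP3 held 6 matches, of which 2 overlapped in the palindrome CACGTG, and ANKRD37 held 3, of which 2 overlapped in the same way. The AP-1 motif TGANTCA was matched in 2 of the 8 genes, CA9 and KDM3A, against 9.37% of all genes. For KDM3A the match was only in the window of its more downstream start, not in the window printed above. Matches were thus present upstream of genes that moved in opposite directions. A match is a description of the letters, not of binding.

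**Figure D1:**
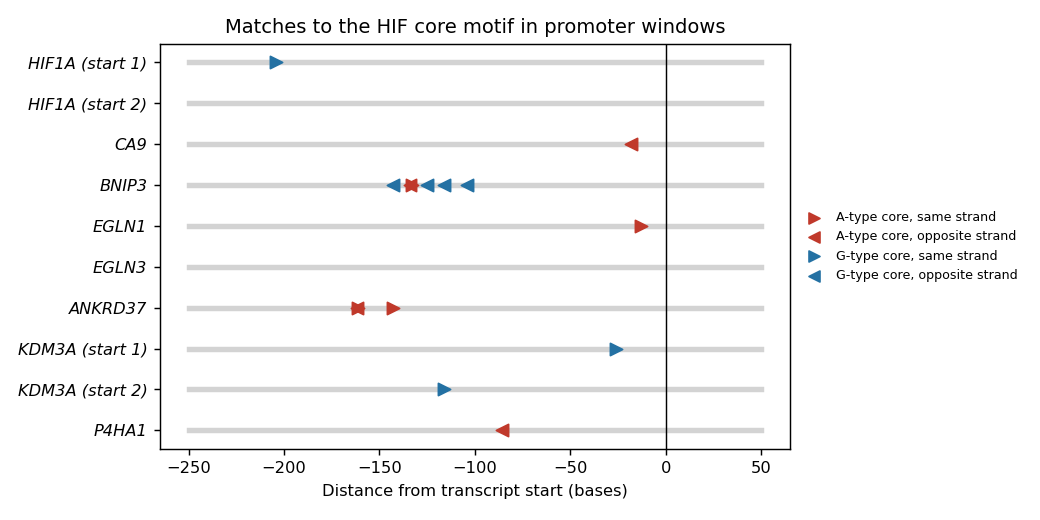
Positions of HIF core motif matches in the promoter windows of 8 genes; the x axis is the distance in bases from the transcript start (vertical line), and arrowheads show the strand of each match, red for the core beginning with A and blue for that beginning with G. BNIP3 and ANKRD37 hold 6 and 3 matches, while EGLN3 and the second start of HIF1A hold none.

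Before the results, the libraries were checked. Their totals ran from 21891060 to 22159921 estimated counts. Within a group, counts of library pairs differed by 3.04 to 6.18 times sampling noise (chi-square per degree of freedom). No library was thus a copy of another in its own group, and pairs across groups were not compared in this way. LINC00857, for which the RefSeq gene table lists HUMT as a synonym, stood at 9.61 ± 0.465 CPM in sh1-HUMT, 8.95 ± 0.575 CPM in sh2-HUMT and 9.24 ± 0.679 CPM in shNC libraries (SD, n = 3 each). Neither knockdown label was thus matched by a called loss of this transcript, and each direction below is a difference between libraries as labelled. Epithelial keratins were high (KRT8 at 819 to 958 FPKM), and EPCAM was at 2.77 to 3.52 FPKM. Of the lung lineage markers, NKX2-1, SFTPB and SFTPC were at or below 0.24 FPKM in every library and NAPSA was at 1.06 to 1.66 FPKM. The summed level of the 9 epithelial and lung markers was 2528 to 2659 FPKM in sh1-HUMT and 2550 to 2598 FPKM in sh2-HUMT, against 3081 to 3205 FPKM in shNC libraries. That sum came mostly from KRT7 (826 to 1236 FPKM), KRT8 and KRT18 (825 to 993 FPKM). Markers of other cell types summed to 28.4 to 30.3 FPKM in sh1-HUMT and 30.04 to 30.6 FPKM in sh2-HUMT, against 21.8 to 23.1 FPKM in shNC libraries, mostly from ACTA2, with PTPRC at or below 0.01 and ALB at or below 0.17 FPKM. Of 7 tested epithelial and lung markers, 4 fell and 1 rose in sh1-HUMT and 3 fell and 1 rose in sh2-HUMT libraries. The one that rose was CDH1 (log2 0.33 and 0.32). Of 4 tested markers of other cell types, 3 rose in each. Of all genes, 16.3% fell and 15.7% rose in sh1-HUMT and 16.5% fell and 15.9% rose in sh2-HUMT libraries. Their part in the results was not tested, and in bulk RNA fewer cells of a type and less RNA per cell cannot be told apart.

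The 10 genes did not move together. Against shNC, HIF1A, EGLN3 and CA9 rose in both hairpin groups, P4HA1, KDM3A and BNIP3 fell in both, ANKRD37 fell in sh1-HUMT libraries, and EGLN1, BNIP3L and NDRG1 did not pass the test. A call is an adjusted p under 0.05 in edgeR's quasi-likelihood test, adjusted over all 18540 genes tested. In sh1-HUMT libraries 7 of the 10 were called, where 31.9% of all genes were; 3 were higher (15.7% of all genes) and 4 lower (16.3%). In sh2-HUMT libraries 6 were called, where 32.5% of all genes were; 3 were higher (15.9%) and 3 lower (16.5%). Both comparisons use the same shNC libraries, so they are not independent; 3 genes were higher in both (12.3% of all genes) and 3 lower in both (12.8%). The log2 differences ran from -0.67 to 0.31. Their median was -0.08 in each comparison, against -0.0012 (sh1-HUMT) and -0.0001 (sh2-HUMT) for all genes tested.

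**Figure D2:**
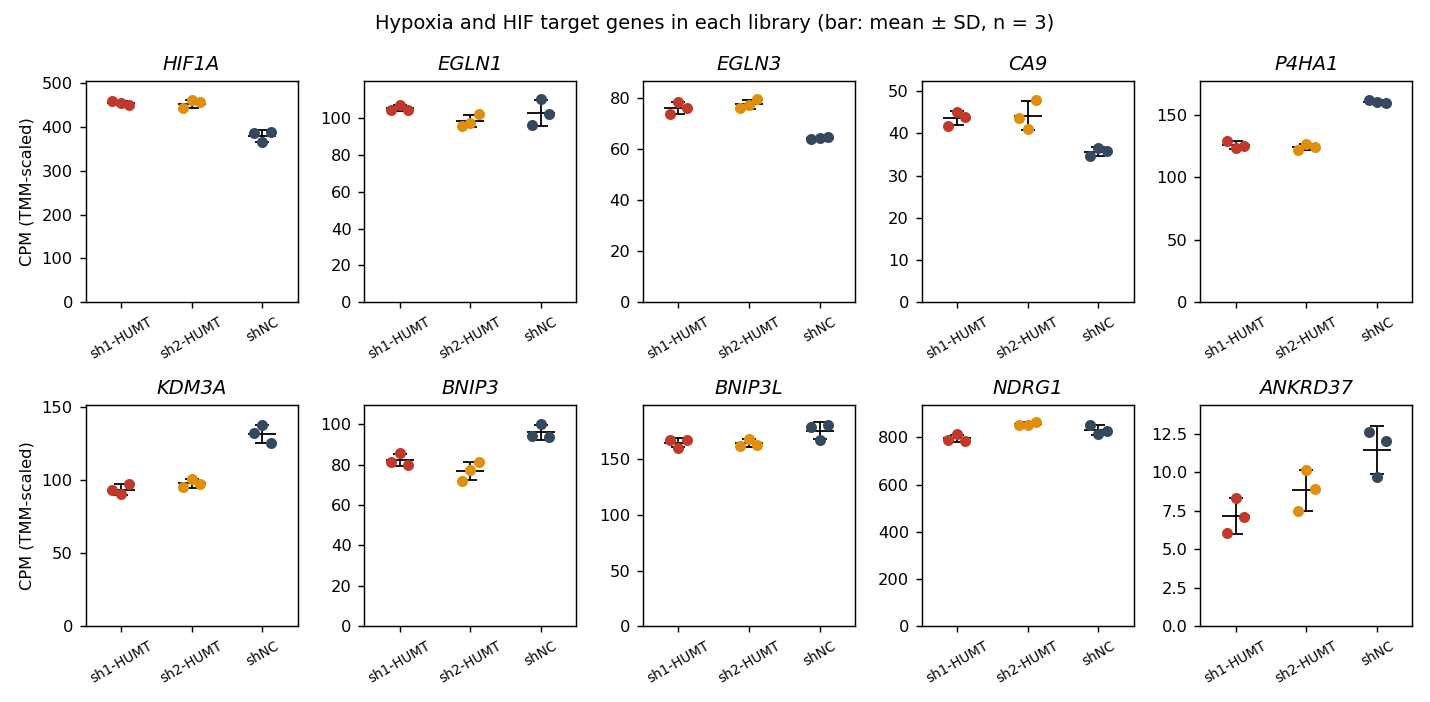
CPM (counts scaled for library size and composition) of each gene in every library, by group; points are libraries and bars the mean ± SD of 3 libraries, with axes from 0. The hairpin groups lie above shNC for HIF1A, EGLN3 and CA9 and below it for P4HA1, KDM3A and BNIP3.

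HIF1A encodes the oxygen-regulated subunit of the HIF dimer. It stood at 459, 453 and 449.6 CPM in sh1-HUMT libraries and at 442, 459.9 and 456 CPM in sh2-HUMT libraries, against 386, 364 and 389 CPM in shNC libraries. All 6 hairpin libraries were above all 3 controls. HIF1A rose by 0.26 on the log2 scale in sh1-HUMT libraries (adjusted p = 3.36e-05, 95% interval 0.19 to 0.32) and by 0.25 in sh2-HUMT libraries (adjusted p = 3.52e-05, 0.19 to 0.32), which is 19.5% and 19.2% more mRNA. The genes whose log2 CPM pattern over the 9 libraries lay closest to that of HIF1A, among 12560 genes with a mean of at least 5 CPM, were SP1, a general transcription factor (root mean square distance 0.0086), ZFP14 (0.0181) and DIP2B (0.0220).

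EGLN1 and EGLN3 encode prolyl hydroxylases that send HIF1A protein to destruction, and both genes are themselves HIF targets. EGLN3 stood at 73.8, 78.6 and 76.4 CPM in sh1-HUMT libraries and 76.1, 77.6 and 79.6 CPM in sh2-HUMT libraries, against 63.9, 64.4 and 65.0 CPM in shNC libraries, with no overlap. It rose by 0.24 (adjusted p = 0.000253) and 0.27 (adjusted p = 0.000101) on the log2 scale, in sh1-HUMT and sh2-HUMT libraries in that order. EGLN1, the main hydroxylase in most cells, stood at 104, 107 and 104 CPM in sh1-HUMT libraries and 95.4, 97.2 and 102 CPM in sh2-HUMT libraries, against 96.2, 110.2 and 102 CPM in shNC libraries. The groups overlapped, and the differences of 0.03 (95% interval -0.07 to 0.13, adjusted p = 0.637) and -0.07 (-0.17 to 0.03, adjusted p = 0.309) were not called.

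CA9 encodes carbonic anhydrase IX, a membrane enzyme that helps cells export acid and a widely used marker of HIF activity. It stood at 41.7, 45.05 and 43.9 CPM in sh1-HUMT libraries and 43.7, 41.0 and 47.8 CPM in sh2-HUMT libraries, against 34.6, 36.6 and 35.8 CPM in shNC libraries. The lowest hairpin library lay above the highest control. CA9 rose by 0.29 on the log2 scale in sh1-HUMT libraries (adjusted p = 0.00219, 95% interval 0.16 to 0.41) and by 0.31 in sh2-HUMT libraries (adjusted p = 0.00134, 0.18 to 0.43).

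P4HA1 encodes the catalytic subunit of collagen prolyl 4-hydroxylase, an enzyme of the endoplasmic reticulum. Its levels were 129.5, 124 and 125 CPM in sh1-HUMT libraries and 122, 127 and 124 CPM in sh2-HUMT libraries, against 162, 160.3 and 159 CPM in shNC libraries. The hairpin libraries lay well below the controls, and the log2 differences were -0.35 (adjusted p = 2.09e-06) and -0.37 (adjusted p = 1.09e-06). The genes closest to its pattern over the 9 libraries were SRSF7, a splicing factor (distance 0.0252), LIF, a cytokine (0.0281), and SUPV3L1, a mitochondrial RNA helicase (0.0299).

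KDM3A encodes a histone H3 lysine 9 demethylase. It showed the largest drop among the 6 genes called in both comparisons, at 93.1, 90.4 and 97.5 CPM in sh1-HUMT libraries and 95.1, 101 and 97.2 CPM in sh2-HUMT libraries, against 132, 138 and 125 CPM in shNC libraries. No hairpin library reached the controls. On the log2 scale the difference was -0.49 in sh1-HUMT libraries (adjusted p = 3.02e-06, 95% interval -0.58 to -0.40) and -0.43 in sh2-HUMT libraries (adjusted p = 8.8e-06, -0.52 to -0.34).

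BNIP3 and BNIP3L encode related outer mitochondrial membrane proteins that act as receptors for mitophagy, the removal of mitochondria. BNIP3 stood at 81.3, 85.7 and 79.9 CPM in sh1-HUMT libraries and 72.1, 77.3 and 81.2 CPM in sh2-HUMT libraries, against 94.2, 100.3 and 93.7 CPM in shNC libraries. It fell without overlap, with log2 differences of -0.22 (adjusted p = 0.00323) and -0.32 (adjusted p = 0.000259). BNIP3L stood at 168, 160.4 and 167 CPM in sh1-HUMT libraries and 162, 169 and 163 CPM in sh2-HUMT libraries, against 179, 167 and 181 CPM in shNC libraries. A control library lay within the range of the hairpin groups, and the log2 differences of -0.09 (adjusted p = 0.066) and -0.10 (adjusted p = 0.0525) were not called. Without shNC replicate 2, BNIP3L was called in both comparisons (-0.12, adjusted p = 0.0141, and -0.12, adjusted p = 0.0119), and without sh1-HUMT replicate 2 it was called in sh2-HUMT libraries (-0.10, adjusted p = 0.0404). DESeq2 also called it in both (adjusted p = 0.0484 and 0.034), as did the sh2-HUMT comparison with a mean count of at least 10 as the filter (adjusted p = 0.0498).

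NDRG1 encodes a cytoplasmic protein induced by hypoxia, metals, p53 and other stress. It stood at 789.6, 813 and 785 CPM in sh1-HUMT libraries and 852, 852 and 865 CPM in sh2-HUMT libraries, against 854, 815 and 827 CPM in shNC libraries. The sh1-HUMT libraries were just below the controls and the sh2-HUMT libraries overlapped them; neither log2 difference was called (-0.06, adjusted p = 0.0718, and 0.04, adjusted p = 0.233). The sh1-HUMT difference was called as lower without sh1-HUMT replicate 2 (-0.08, adjusted p = 0.0255), in DESeq2 (-0.06, adjusted p = 0.0338) and after correction for GC content and transcript length (-0.10, adjusted p = 0.00674). In the authors' FPKM values, tested with limma, the sh1-HUMT difference was 0.08 (adjusted p = 0.0613) and the sh2-HUMT difference was called as higher (0.20, adjusted p = 0.000995). This alternative differs from edgeR in the unit, the scaling and the test at once; the sign turned for sh1-HUMT, where neither difference was called, and was positive in both for sh2-HUMT.

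ANKRD37 encodes a small ankyrin repeat protein and was the lowest of the 10, with 136 to 268 estimated counts per library. It stood at 6.05, 8.36 and 7.10 CPM in sh1-HUMT libraries and 7.49, 10.1 and 8.90 CPM in sh2-HUMT libraries, against 12.6, 9.72 and 12.04 CPM in shNC libraries. Only the sh1-HUMT libraries lay wholly below the controls: the log2 difference was -0.67 in sh1-HUMT libraries (adjusted p = 0.00428, 95% interval -0.996 to -0.35) and -0.37 in sh2-HUMT libraries (adjusted p = 0.0693, -0.69 to -0.06). Leaving out shNC replicate 2 brought the sh2-HUMT difference past the threshold (-0.47, adjusted p = 0.0343), and so did leaving out sh2-HUMT replicate 2 (-0.48, adjusted p = 0.0454).

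**Figure D3:**
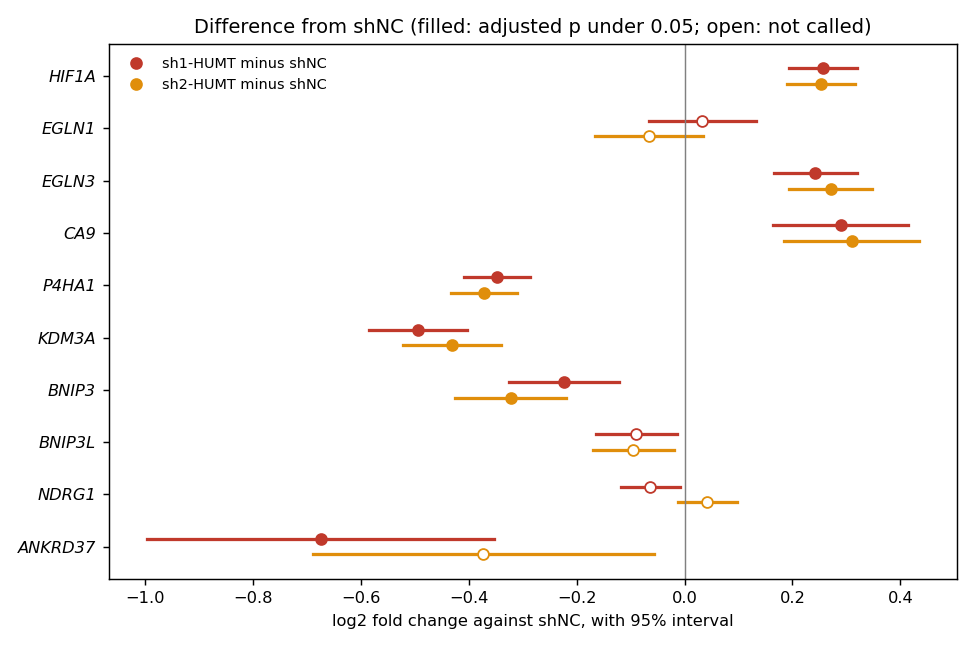
log2 fold change of each gene against shNC with its 95% interval, red for sh1-HUMT and orange for sh2-HUMT; filled points are called at an adjusted p under 0.05. HIF1A, EGLN3 and CA9 lie right of 0, P4HA1, KDM3A and BNIP3 lie left of it, and ANKRD37 has the widest intervals.

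Between the hairpin groups, none of the 10 genes was called by edgeR, where 0.286% of all genes (53) were; 2187 genes, of which 1 (NDRG1) is among the 10, had an unadjusted p under 0.05. The largest difference relative to its error was that of NDRG1, 856 ± 7.41 CPM in sh2-HUMT and 796 ± 15.1 CPM in sh1-HUMT libraries (SD, n = 3 each), without overlap. Its log2 difference, sh2-HUMT minus sh1-HUMT, was 0.11 (95% interval 0.05 to 0.16, adjusted p = 0.12). DESeq2 called it (adjusted p = 0.00133), as did edgeR without sh1-HUMT replicate 2 (0.12, adjusted p = 0.047). For HIF1A the difference was -0.0038 (95% interval -0.07 to 0.06) and for ANKRD37 0.30 (-0.02 to 0.63), so the data bound the first closely and the second loosely.

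Levels of different genes were set side by side in FPKM, which divides counts by transcript length. NDRG1 was the highest at 299 ± 5.69 FPKM in sh1-HUMT, 324 ± 7.01 in sh2-HUMT and 283 ± 7.20 in shNC libraries, and HIF1A followed at 117 ± 1.86, 117 ± 2.38 and 94.7 ± 2.24 FPKM (SD, n = 3 each, same group order). ANKRD37 was the lowest at 4.36 ± 1.02, 4.94 ± 0.725 and 6.32 ± 0.483 FPKM. Between them, the order in shNC libraries was BNIP3, BNIP3L, P4HA1, EGLN3, KDM3A, EGLN1 and CA9, of which BNIP3L overlapped P4HA1 and EGLN3 overlapped KDM3A. In both hairpin groups EGLN3 (41.3 ± 0.956 FPKM in sh1-HUMT, 40.2 ± 0.315 in sh2-HUMT) stood above P4HA1 (39.0 ± 0.853 and 37.3 ± 0.701), whereas in shNC libraries EGLN3 (33.3 ± 0.567) stood below P4HA1 (48.4 ± 0.739). Likewise CA9 (25.8 ± 1.56 and 26.8 ± 1.90 FPKM) stood above KDM3A (22.8 ± 0.909 and 24.1 ± 0.455) in the hairpin groups and below it in shNC libraries (19.6 ± 0.640 against 32.5 ± 2.53). Neighbours that overlapped were EGLN1 and CA9 in each hairpin group, and also BNIP3 and BNIP3L, and EGLN1 and KDM3A, in sh2-HUMT libraries.

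**Figure D4:**
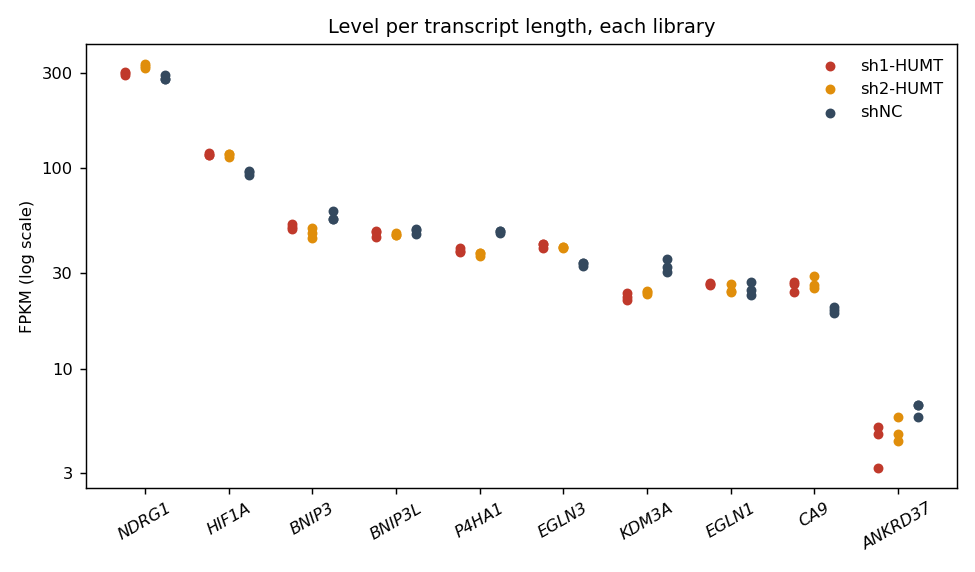
FPKM of each gene in every library on a log axis, with genes ordered by their shNC mean; colours mark the groups. NDRG1 and HIF1A are the highest and ANKRD37 the lowest in all groups, and the hairpin libraries of EGLN3 and CA9 cross those of P4HA1 and KDM3A.

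Other genes of the HIF machinery moved in both directions. Of 16 such genes, 3 rose and 5 fell in sh1-HUMT libraries (against 15.7% and 16.3% of all genes) and 4 rose and 5 fell in sh2-HUMT libraries (against 15.9% and 16.5%), with median log2 differences of 0.0072 and -0.07; the sign of the first depended on the setting (-0.09 to 0.05). SIAH2, a ubiquitin ligase that targets EGLN hydroxylases, fell, with log2 differences of -0.63 in sh1-HUMT and -0.59 in sh2-HUMT libraries. ELOB (-0.37 and -0.28) and ELOC (-0.27 and -0.35), the elongin subunits that join VHL to its ligase, fell too. VHL itself rose by 0.13 and 0.16, HIF1AN, the asparaginyl hydroxylase that blocks HIF activation, by 0.19 and 0.18, and ARNT2, a HIF partner, by 0.29 and 0.14. These rises were small, and several lost their call when 1 library was left out. In sh1-HUMT libraries 1 gene was called higher without sh1-HUMT replicate 1. The count was 2 each without sh1-HUMT replicate 2 or 3, sh2-HUMT replicate 1 or shNC replicate 3. In sh2-HUMT libraries 2 rose without sh2-HUMT replicate 1 or shNC replicate 2, with 3 falling in each case, and 1 rose after GC and length correction. VHL lost its sh1-HUMT call in 8 of 19 alternatives, with an adjusted p of up to 0.118 (without shNC replicate 3). Its log2 difference in those 8 ran from 0.0956 to 0.1347, against 0.1260 in the main fit. HIF1AN lost its call in 3 alternatives in each comparison, among them those without sh1-HUMT replicate 1 (adjusted p = 0.0595) and without sh2-HUMT replicate 1 (adjusted p = 0.0788). The rest were the fits with GC and length correction, where HIF1AN rose by only 0.06 in sh1-HUMT and 0.09 in sh2-HUMT libraries. ARNT2 lost its sh2-HUMT call in 5 alternatives, among them those without sh2-HUMT replicate 3 (adjusted p = 0.0862), shNC replicate 2 (0.0661) or shNC replicate 3 (0.0709). The rest were again the fits with GC and length correction, where ARNT2 rose by only 0.06 in sh2-HUMT libraries. EPAS1, the other main oxygen-regulated subunit (-0.01, adjusted p = 0.85, and -0.05, adjusted p = 0.157), and ARNT (0.03, adjusted p = 0.734, and 0.09, adjusted p = 0.15) did not pass the test and were named after their values were seen.

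Among HIF targets, the list shared with other stress had the lowest median. Of its 15 tested genes (IER3 was too low to test), 11 fell and 3 rose in each comparison, with a median of -0.54 in both; of all genes, 16.3% and 16.5% fell and 15.7% and 15.9% rose, in sh1-HUMT and sh2-HUMT libraries. ADM, the vasodilator adrenomedullin, fell to 80.5 ± 1.99 CPM in sh1-HUMT and 82.5 ± 0.678 CPM in sh2-HUMT libraries, against 184 ± 1.72 CPM in shNC libraries (SD, n = 3 each). On the log2 scale, in sh1-HUMT and then sh2-HUMT libraries, HMOX1, the heme oxygenase, fell (-1.24 and -1.32), as did PLIN2, a lipid droplet coat protein (-0.99 and -1.0754). ERRFI1, a feedback inhibitor of EGFR, fell (-0.80 and -0.82), and so did STC2, a secreted glycoprotein (-0.77 and -0.97). The 3 that rose, named after their values were seen, were CITED2, which competes with HIF for its coactivators (0.39 and 0.46), ERO1A, an oxidase of protein folding (0.30 and 0.26; not called for sh1-HUMT with limma on FPKM, 0.10, adjusted p = 0.104), and STC1, a secreted glycoprotein related to STC2 (0.20 and 0.23). Beside them, all 15 genes of a list of other stress genes fell in both comparisons, where 12.8% of all genes did. That list and all the HIF lists were chosen with earlier results of these data known. Their counts and medians, and the contrasts between them, are therefore not independent evidence. The other stress list includes DNAJB1, an HSP40 co-chaperone (-3.004 and -2.90), and PPP1R15A, a subunit of the eIF2alpha phosphatase (-2.67 and -2.86). EGR1, an immediate early factor, changed by -5.71 and -6.04, and HSPA1A, an HSP70 chaperone, by -4.27 and -3.90; HSPA1A has a near-identical copy, so its share of reads is uncertain. Whether the fall of the shared HIF targets goes with that of the other stress genes was not tested.

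HIF targets of sugar uptake and glycolysis mostly fell by less. Of 18 genes, 14 fell and 1 rose in sh1-HUMT libraries and 13 fell and 1 rose in sh2-HUMT libraries, where 16.3% and 16.5% of all genes fell, with medians of -0.16 and -0.18. PDK1, which holds pyruvate back from mitochondria, had the largest change (-0.94 and -0.97), followed by hexokinase HK2 (-0.55 and -0.47). SLC2A1 (-0.45 and -0.39) and SLC2A3 (-0.39 and -0.27), which carry glucose into the cell, also fell. PFKFB3 (-0.25 and -0.23) and PGK1 (-0.21 and -0.19) fell with them. PFKFB4, a relative of PFKFB3 that also makes the activator of phosphofructokinase, was the gene that rose (0.41 and 0.37, named after its values were seen). In the FPKM values with limma, 9 of the 18 fell and 2 rose in sh1-HUMT libraries, and 11 fell and 1 rose in sh2-HUMT libraries. Among all genes tested there, 2045 fell and 3134 rose in sh1-HUMT and 2112 fell and 2976 rose in sh2-HUMT libraries. The medians of all genes there were 0.0422 and 0.0364, so that setting lies higher as a whole than edgeR.

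The remaining HIF targets moved both ways. Of 24 tested genes, 7 rose and 7 fell in sh1-HUMT libraries and 8 rose and 8 fell in sh2-HUMT libraries, with medians of -0.05 and -0.07; 7 rose and 7 fell in both, where 12.3% and 12.8% of all genes did. Without sh2-HUMT replicate 2 or 3, 5 rose in sh2-HUMT libraries. The sh1-HUMT median was -0.0024 without shNC replicate 2, -0.0186 without sh1-HUMT replicate 2 and -0.0247 without shNC replicate 3. CA12, a carbonic anhydrase related to CA9, stood at 1951 ± 21.0 CPM in sh1-HUMT and 1931 ± 5.08 CPM in sh2-HUMT libraries, against 1368 ± 24.8 CPM in shNC libraries (log2 0.51 and 0.50). PPFIA4, a liprin scaffold protein, rose by 0.85 and 0.94, and ZNF395, a zinc finger protein, by 0.40 and 0.35. The collagen lysyl hydroxylases PLOD2 (-0.43 and -0.45) and PLOD1 (-0.33 and -0.27) fell, as did PPP1R3C, which targets a phosphatase to glycogen (-0.41 and -0.46). Differences between these lists were not tested.

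**Figure D5:**
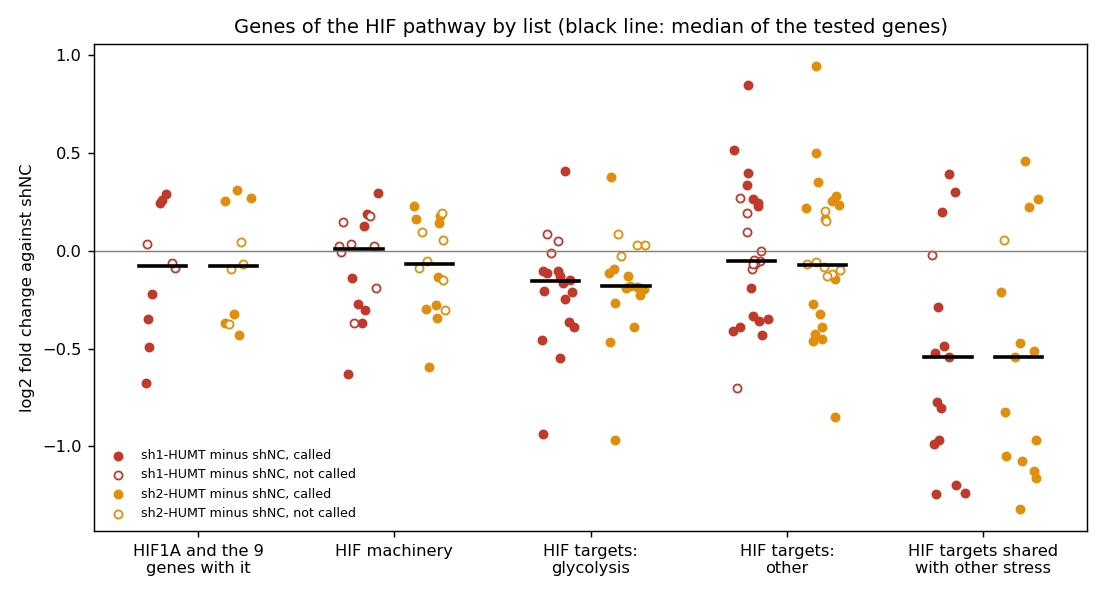
log2 fold change against shNC of every tested gene in 5 lists, red for sh1-HUMT and orange for sh2-HUMT; filled points are called, open points are not, and black lines are list medians. The list shared with other stress has medians of -0.54, while the other lists have medians between -0.18 and 0.0072. All 5 lists have points on both sides of 0.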

How the data were processed

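RNA from 9 libraries was sequenced on a BGI500, per the labels' protocols. Per the submitters' processing notes, the tools included RSEM 1.2.12, Bowtie2 2.2.5, HISAT2 2.0.4 and DESeq2 1.4.5, listed with no role or order. No source used here names the build. The authors deposited a table of estimated counts per gene (91.3% of genes hold a value that is not whole within 0.005) and a second column per library whose unit the header does not name. For a typical gene its values imply nearly the same transcript length in each library (median coefficient of variation 0.855% over 1826 highly counted genes). These deposited values were therefore read as FPKM. The implied length was not the same for every gene. NDRG1 had 17736 estimated counts and 299.31 FPKM in sh1-HUMT replicate 1, against 18144 and 291.01 in shNC replicate 1. Columns of group means were not used. The table's headers name A549, some titles spell HUNT, and columns were matched to groups by their NC, Si_1 or Si_2 names. The series' design text describes another study and was not used.

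Estimated counts were rounded to whole numbers and fitted for 3 group means with edgeR 4.0.16 in R 4.3.3 (TMM, filterByExpr, robust quasi-likelihood F test). Benjamini-Hochberg adjustment ran over all 18540 genes tested, with a threshold of 0.05. Log2 fold changes carry 95% intervals from the fit. The common biological coefficient of variation was 7.02%. CPM are scaled by TMM factors, which ran from 0.968 to 1.02. DESeq2 1.42.0 and limma 3.58.1, on log2(FPKM + 0.1), served as alternatives; the limma alternative was added after the data had been seen.

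The 10 genes and the gene lists were chosen with earlier results of these data known. Of each HIF list, up to 6 genes are named: those called in both comparisons against shNC with the smallest adjusted p (up to 4 for other stress genes). A gene that this rule names is not reported here. For HIF1A and P4HA1, the 3 genes closest in centred log2 CPM are named. Other names are marked as chosen after their values were seen. Promoter sequences are from RefSeq (GRCh38.p14).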

Additional observations from a re-analysis of the deposited data

How the results depend on the processing

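Each result was recomputed under 19 alternatives, of which 9 left out 1 library. None of the 13 calls among the 10 genes was lost and none changed direction: 184 of the sh1-HUMT, 183 of the sh2-HUMT and 188 of the sh2-HUMT minus sh1-HUMT fold changes stayed on their side of the threshold, and 6, 7 and 2 passed it anew, in BNIP3L, NDRG1 and ANKRD37. Genes of the 10 called lower in sh2-HUMT libraries ran from 3 to 5 when 1 library was left out, with 5 without shNC replicate 2. The comparison of sh2-HUMT with sh1-HUMT depended most on the settings. Its 53 calls became 369 with DESeq2, 35 with only those 2 groups fitted and 9 with limma on FPKM; leaving out 1 library gave 1 to 155. The count was 16, 155 and 27 without sh1-HUMT replicates 1, 2 and 3, 1, 6 and 9 without sh2-HUMT replicates 1, 2 and 3, and 24 without shNC replicate 1. Of the 10 genes, 1 (NDRG1) was called higher there with DESeq2, and 0 to 1 when a library was left out. Correction for GC content and length, available for 84.5% of genes, changed the higher and lower calls there to 8 and 43, against 20 and 33. The causes were not tested. Calls that some list genes lost are given beside those genes. Replicate numbers did not pair the libraries: deviations of same-numbered libraries correlated at -0.026 to 0.105, with 1 of 9 pairs over 0.1, and 3 of 9 libraries matched their own number best. A fit with the replicate number as a block gave 29 calls between the hairpin groups (7 higher and 22 lower, and 5 and 32 with the GC correction as well) and changed no other count of calls by over 1.5 times. ANKRD37 had the fewest counts of the 10 genes, 136 to 268 per library, and a coefficient of variation of 13.4% to 16.1% within groups.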

Other observations

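Among the fixed lists, P4HA2, KDM4B, KDM4C and EGLN2 belong to the same families as P4HA1, KDM3A and the EGLN genes; they were picked after their values were seen and get no test as a group. P4HA2, which encodes another catalytic subunit of collagen prolyl 4-hydroxylase, averaged 76.0 ± 2.43 CPM in sh1-HUMT and 78.4 ± 3.15 CPM in sh2-HUMT libraries, against 86.7 ± 3.38 CPM in shNC libraries (SD, n = 3 each). It fell, with log2 fold changes of -0.19 (adjusted p = 0.00419) and -0.15 (adjusted p = 0.0183) in edgeR. Limma on FPKM called neither (-0.10, adjusted p = 0.0757, and -0.06, adjusted p = 0.264). The sh2-HUMT call was also lost without sh2-HUMT replicate 1 (adjusted p = 0.0749), sh2-HUMT replicate 2 (0.0828) or shNC replicate 1 (0.0979). KDM4B, a histone demethylase, rose to 36.3 ± 1.58 CPM in sh1-HUMT and 36.1 ± 2.36 CPM in sh2-HUMT libraries, against 30.3 ± 0.243 CPM in shNC libraries. Its log2 fold changes were 0.26 (adjusted p = 0.00271) and 0.26 (adjusted p = 0.00303), and the sh2-HUMT rise was not called after GC and length correction (0.12, adjusted p = 0.0968). KDM4C, a close relative of KDM4B, was not called (-0.05, adjusted p = 0.43, and -0.10, adjusted p = 0.0743). EGLN2, a hydroxylase of the HIF machinery, was not called either (0.02, adjusted p = 0.748, and 0.05, adjusted p = 0.399).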
